A study of Mus musculus with 18 samples.

Results

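The third replicate of the 67NR RNA-seq, 3 libraries with 1 from each genotype, was compared with the 6 libraries of replicates 1 and 2, with genotype as a block. These 9 libraries were part of a series of 18. The comparison was chosen on the measured separation of the 3 libraries, so its values are given as a description with no p-value, and nothing is read from how many genes it holds. 67NR is a non-metastatic mouse mammary tumour cell line. Its libraries came from WT cells and from cells in which *Kmt2c* or *Kmt2d*, which encode enzymes that methylate histone H3 at enhancers, had been targeted with Cas9 and 3 guides against exon 1. The *Kmt2c* KO and *Kmt2d* KO cells were sorted pools and not single clones. All were cultured in DMEM with fetal bovine serum and no treatment is given. Biological replicates of the study were collections a passage apart, and its heatmaps treated the time of collection as a batch. The labels give the replicate number only, so passage, RNA extraction and library preparation cannot be told apart, and nothing says that libraries with the same number were collected together. P-values below measure the spread between these libraries, which may in part be technical.

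Dividing cells copy their DNA in S phase and separate it in mitosis. The genes for the first step are transcribed through E2F factors, and many genes for the second through complexes that bind CHR elements and CCAAT boxes. ATF4 is a transcription factor made when amino acids run short or unfolded protein builds up, and it raises amino acid transporters, synthetic enzymes and stress regulators through C/EBP-ATF response elements. Unfolded protein also raises the chaperones of the endoplasmic reticulum, and low sterol raises the enzymes of cholesterol synthesis. In bulk RNA, a larger share of cells that express a gene and more of its RNA per cell cannot be told apart.

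To show regulatory sequence in front of genes that marked replicate 3, promoter bases from RefSeq are given for members of 3 gene lists. The 150 bases before the start are shown for the 2 called members of each list with the lowest p-values whose window held the motif searched. Both motifs and genes were picked with the results known. Capitals mark a CHR element (TTTGAA) or a CCAAT box (CCAAT) in the mitotic genes *Cdk1* and *Top2a*, an E2F site (TTTGGCGC or TTTCCCGC) in the DNA replication genes *Cdc6* and *Mcm5*, and a C/EBP-ATF response element (TGATGNAA) in the ATF4 response genes *Slc7a11* and *Nupr1*, each on either strand.
Cdk1, GRCm38.p6 chr10:69352913-69353062, - strand: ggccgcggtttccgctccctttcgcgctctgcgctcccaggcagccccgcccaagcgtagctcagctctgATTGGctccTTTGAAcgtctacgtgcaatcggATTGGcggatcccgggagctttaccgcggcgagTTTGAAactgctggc
Top2a, GRCm38.p6 chr11:99024190-99024339, - strand: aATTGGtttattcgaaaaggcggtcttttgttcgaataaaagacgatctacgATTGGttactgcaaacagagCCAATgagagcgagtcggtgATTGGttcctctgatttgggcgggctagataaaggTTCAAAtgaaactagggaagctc
Cdc6, GRCm38.p6 chr11:98908001-98908150, + strand: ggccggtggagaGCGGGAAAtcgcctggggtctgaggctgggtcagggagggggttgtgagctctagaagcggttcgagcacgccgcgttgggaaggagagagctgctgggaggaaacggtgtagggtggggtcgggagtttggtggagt
Mcm5, GRCm38.p6 chr8:75109359-75109508, + strand: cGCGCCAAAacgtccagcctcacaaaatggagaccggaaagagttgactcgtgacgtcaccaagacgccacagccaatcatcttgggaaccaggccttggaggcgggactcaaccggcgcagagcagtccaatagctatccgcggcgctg
Slc7a11, GRCm38.p6 chr3:50443614-50443763, - strand: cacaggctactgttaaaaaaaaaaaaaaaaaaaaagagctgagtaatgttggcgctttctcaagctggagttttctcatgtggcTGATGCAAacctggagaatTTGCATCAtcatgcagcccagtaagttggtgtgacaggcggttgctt
Nupr1, GRCm38.p6 chr7:126625471-126625620, - strand: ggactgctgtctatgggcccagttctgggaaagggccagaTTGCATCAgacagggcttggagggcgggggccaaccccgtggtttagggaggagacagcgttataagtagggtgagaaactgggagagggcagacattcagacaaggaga

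The window of *Cdk1* held 4 matches and that of *Top2a* 5. The *Slc7a11* window held 2 C/EBP-ATF response elements, in opposite orientation. Within 250 bases before the start, this element occurred in 10 of 27 ATF4 response genes with an entry (37.0%) and in 2.51% of all 10353 tested genes with one. The CCAAT box occurred in 20 of 26 mitotic genes (76.9%) against 40.9% of tested genes, and the CHR element in 10 of 26 (38.5%) against 12.9%. The E2F site occurred in 5 of 29 DNA replication genes (17.2%) against 2.83%. Of 16 sterol synthesis genes, 15 held a CCAAT box, and 0 held the sterol regulatory element searched (TCACNCCAC), which 1.25% of tested genes held. These matches describe the letters in the window only.

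The 67NR libraries held 40951775 to 79251530 counts. Without the Rn45s row, described below, replicate 3 libraries held 38881600 to 44645194 counts and the other 6 held 49364587 to 78735196. Replicate 3 was thus the shallowest library of each genotype, and the part of depth in the differences was not tested. The first principal component of genotype-centred log2 CPM (CPM are counts scaled to library size) took 63.4% of the variance, with replicate 3 at 50.4 to 63.3 and the other 6 libraries at -32.8 to -24.1. The *Kmt2d* KO replicate 3 library stood apart in another way, with 28.7% of its counts on the ribosomal RNA precursor Rn45s against 0.495% to 2.45% in the others. That row was left out of the tests. The histone and interferon counts are given without this library as well, while the interaction test below needs it as the only replicate 3 library of its genotype. *Lars2*, the mitochondrial leucyl-tRNA synthetase, was at 20964 CPM in that library and at 500.2 to 957 CPM in the other 8. The value of 957 CPM was in the library with 2.45% Rn45s. In 168FARN, the other line of the series, *Lars2* was highest (5303 CPM) in the library with the largest Rn45s share (4.96%). The part of Rn45s in the *Lars2* level was not tested. In 67NR, *Kmt2c* was at 92.4, 100.5 and 90.5 CPM in *Kmt2c* KO libraries and 59.5, 65.9 and 56.2 CPM in WT. *Kmt2d* was at 98.9, 154 and 103 CPM in *Kmt2d* KO libraries and 117, 101 and 85.4 CPM in WT. Guides that disrupt an exon need not lower the RNA, so these levels do not check the labels.

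Among 13675 genes tested, 2098 (15.3%) were called higher and 1824 (13.3%) lower in replicate 3 by edgeR, where a call needs an adjusted p under 0.1 together with a log2 fold change beyond 0.6 in size. Of the genes called higher, 1159 had a log2 fold change over 1 and 254 over 2. Of those called lower, 681 were below -1 and 121 below -2. In all 3 genotypes, replicate 3 lay above both other libraries for 1918 of the genes called higher and below both for 1687 of those called lower. Over all 13675 genes tested, it lay above both for 3410 and below both for 3571. The calls used the same values, so such counts, here and for the lists below, are partly fixed by the calls and are description only. By the same rule, replicate 2 against replicate 1 gave 0 genes (0%) in edgeR's quasi-likelihood test and 0 in DESeq2. In edgeR, 63 genes (0.461%) had an unadjusted p under 0.05, and 183 (1.34%) when replicate 3 was left out of the fit. Both shares are below what that cut-off gives with no difference, so the test was conservative. The 0 calls therefore do not show that replicates 1 and 2 agree. Within a genotype, 57.5% to 66.4% of genes differed between them beyond sampling noise, at an unadjusted p under 0.05 in a chi-square check. The median size of the log2 difference was 0.09 between replicates 2 and 1 and 0.40 between replicate 3 and the others. Counts of list members below are over those that passed the filter on low counts, which some listed genes did not. They are to be read beside the 15.3% called higher and 13.3% called lower over all genes tested. Log2 fold changes of single genes, also those in parentheses after WT CPM, are from the fit over the 3 genotypes unless given for each genotype. The change in WT alone can differ from them.

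Mitotic genes were higher throughout. All 32 members were called higher and lay above both other libraries in all 3 genotypes, with a median log2 fold change of 2.13 and a range of 1.38 to 2.91, against a median of -0.02 over all genes tested. *Cdk1*, the kinase that drives entry into mitosis (mm9 chr10:68799383-68815686), was at 60.02, 57.9 and 316 CPM in replicates 1, 2 and 3 of WT, at 79.96, 89.2 and 308 CPM in those of *Kmt2c* KO and at 74.97, 68.1 and 323 CPM in those of *Kmt2d* KO. Its 3 replicate 3 values, 308 to 323 CPM, lay far above the 57.9 to 89.2 CPM of the others, and the log2 fold change was 2.16 (SE 0.10). *Top2a*, the topoisomerase that untangles sister chromatids, read 125, 132 and 823 CPM for WT, 274, 262 and 863 CPM for *Kmt2c* KO and 198, 177 and 767 CPM for *Kmt2d* KO. *Cenpf*, a kinetochore protein, had a log2 fold change of 2.32 (SE 0.15), and *Prc1*, which bundles the spindle midzone, of 1.66. The 5 largest log2 fold changes among genes called higher, at a mean of at least 5 CPM and above in all genotypes, included *Cdkn3*, a phosphatase of cyclin-dependent kinases (3.12), *Fam83d*, a spindle protein (3.04), *Cdca3* (2.99) and *Ube2c*, the conjugating enzyme of the anaphase-promoting complex (2.91).

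**Figure D1:**
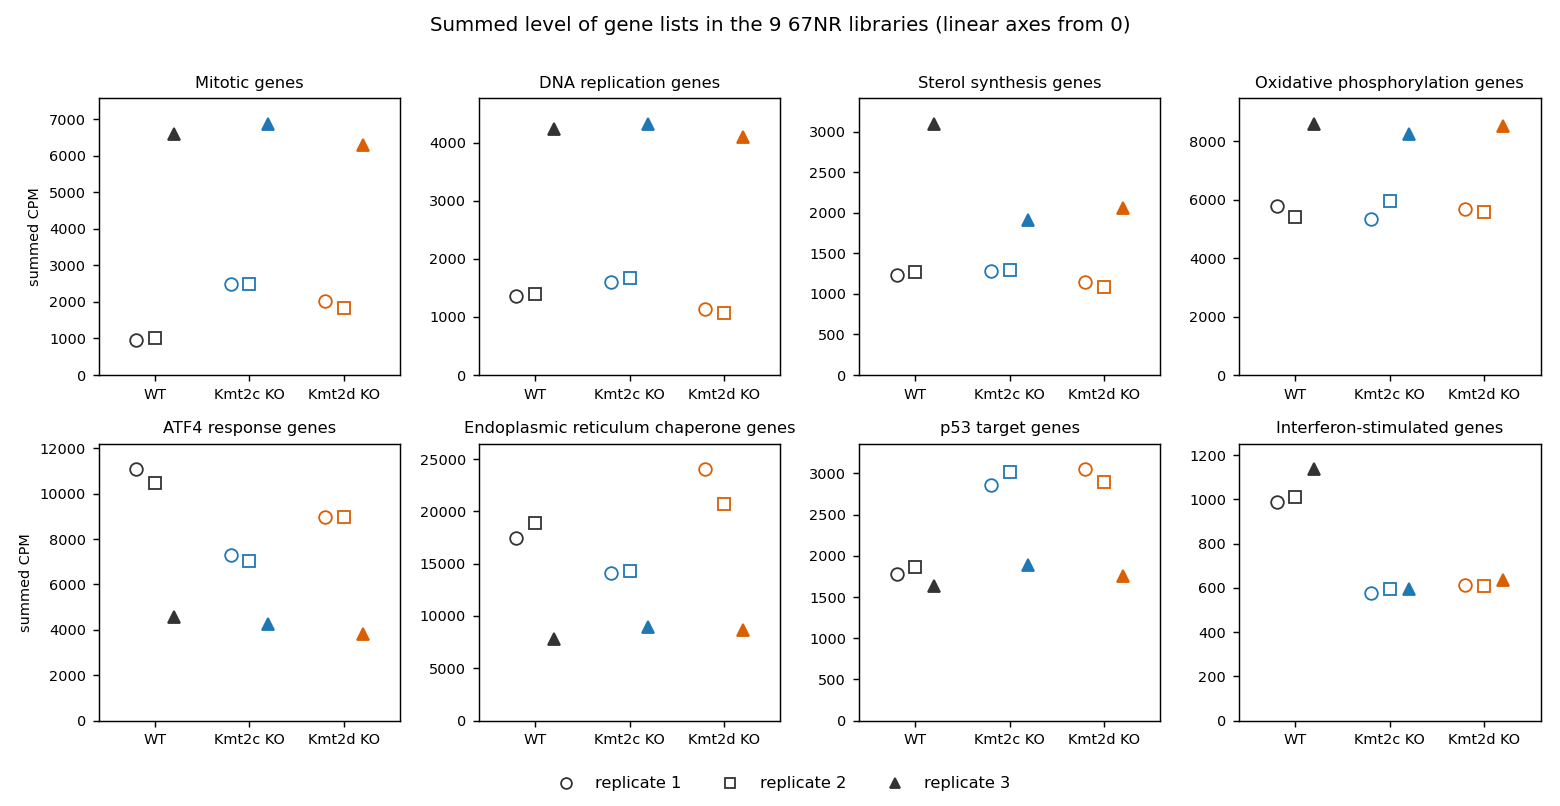
Summed CPM of 8 gene lists (linear vertical axes from 0) in the 9 67NR libraries by genotype, with circles for replicate 1, squares for replicate 2 and filled triangles for replicate 3. Replicate 3 sat at 6290.2 to 6884 for mitotic genes against 954 to 2482 in the other libraries, and at 3832 to 4569.6 for ATF4 response genes against 7012 to 11079.

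DNA replication genes were higher as well. Of 36 members, 34 were called higher and 0 lower, with a median log2 fold change of 1.62. *Tk1*, the thymidine kinase of the salvage pathway (chr11:117676840-117687406), was at 25.6, 23.7 and 130.3 CPM in replicates 1, 2 and 3 of WT, at 31.03, 31.5 and 129 CPM in those of *Kmt2c* KO and at 28.1, 32.5 and 147 CPM in those of *Kmt2d* KO, a log2 fold change of 2.24 (SE 0.10). Its 9 values formed 2 groups with no overlap, and the genotypes differed little within each. *Rrm1*, the large subunit of ribonucleotide reductase, had a log2 fold change of 2.13, *Uhrf1*, which helps to carry DNA methylation through replication, of 2.36 and *Tyms*, thymidylate synthase, of 2.18. The gene *2810417H13Rik*, which encodes a PCNA-binding protein, had the largest change of the 5 just described. It read 19.5, 22.6 and 212 CPM for WT, 22.8, 27.05 and 175 CPM for *Kmt2c* KO and 13.03, 11.99 and 191 CPM for *Kmt2d* KO, a log2 fold change of 3.38 (SE 0.16). *Cdc6* and *Mcm5*, whose promoters are shown above, serve to load the replicative helicase and had log2 fold changes of 2.59 and 1.97. The members not called were *Cdt1* (0.39) and *Ccne2* (0.33). Of 13 G1 cyclins and inhibitors, 3 were called higher and 2 lower. The inhibitor *Cdkn1a* was lower, at 44.2, 36.5 and 11.8 CPM in WT, with a log2 fold change over the 3 genotypes of -1.02.

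The genotypes lay closer together in mitotic transcripts in replicate 3 than in the other replicates. Summed over the list, WT libraries were at 954, 1019 and 6612 CPM in replicates 1, 2 and 3. The corresponding sums were 2482, 2482 and 6884 CPM for *Kmt2c* KO and 2015, 1843 and 6290.2 CPM for *Kmt2d* KO. WT was thus the lowest genotype in replicates 1 and 2 and lay between the knockouts in replicate 3, with median log2 fold changes over the list of 2.95 in WT, 1.55 in *Kmt2c* KO cells and 1.78 in *Kmt2d* KO cells. Inequality between genotypes was called in 2480 of 13675 genes (18.1%) at an adjusted p under 0.1 by edgeR's interaction test, and in 30 of the 32 mitotic and 19 of the 36 DNA replication genes. Each genotype has 1 replicate 3 library, so this test has 3 residual degrees of freedom, takes its spread from replicates 1 and 2 alone and assumes that replicate 3 varies like them, and its p-values may be too small. *Mki67*, the proliferation antigen, named here after its values were seen, read 45.4, 49.8 and 548 CPM for WT, 460.3, 402 and 859 CPM for *Kmt2c* KO and 237, 235 and 618 CPM for *Kmt2d* KO (adjusted p = 2.2e-06, edgeR). *Cdk1* (adjusted p = 0.15) and *Tk1* (adjusted p = 0.46) did not pass the test.

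**Figure D2:**
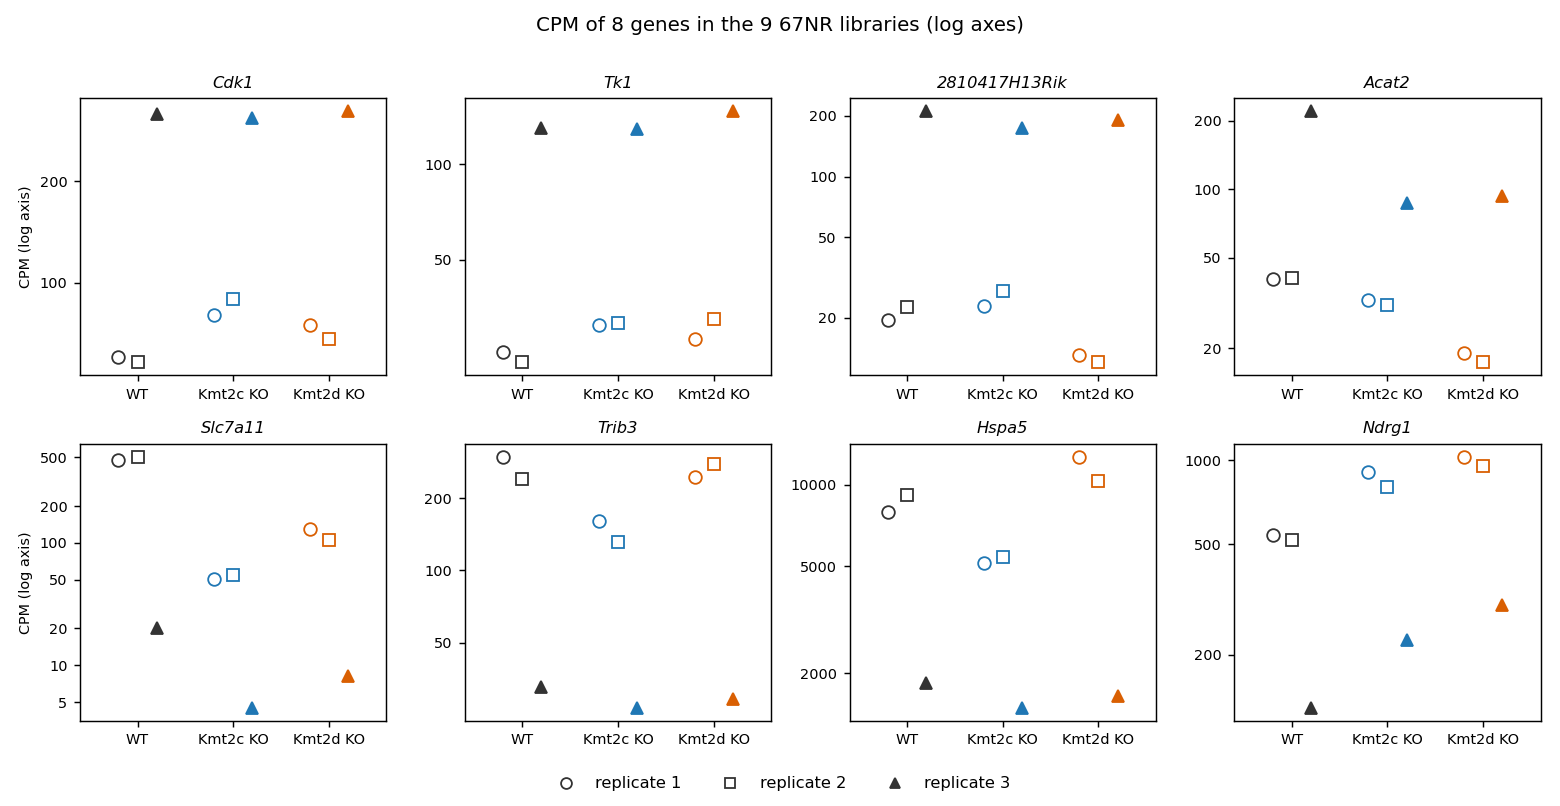
CPM of 8 genes (log vertical axes, a separate scale for each gene) in the 9 67NR libraries, with circles, squares and filled triangles for replicates 1, 2 and 3. In every panel the replicate 3 library lies beyond both other libraries of its genotype, above for the 4 genes of the upper row and below for the 4 of the lower row.

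Histone transcripts of the replication-dependent clusters were low in replicates 1 and 2 and higher in replicate 3. Of 34 members listed, 26 passed the filter on low counts. A member this low can pass through the replicate 3 libraries alone, so the 24 of 26 called higher are partly fixed by the filter and nothing is read from that share. With no filter, 30 of 33 were called higher and 0 lower. These transcripts lack a poly(A) tail, and the libraries were made from poly(A) RNA. The summed level was 29.1, 27.96 and 41.7 CPM for WT, 13.7, 10.8 and 44.1 CPM for *Kmt2c* KO and 19.5, 13.96 and 244 CPM for *Kmt2d* KO libraries, with the highest sum in the library that held 28.7% Rn45s. Without that library, 22 of 26 were called higher, and the median log2 fold change was 2.46 in place of 3.64. *Hist1h4b*, which encodes histone H4, read 0.0727, 0.0897 and 1.34 CPM for WT, 0.226, 0.0999 and 5.99 CPM for *Kmt2c* KO and 0.261, 0.241 and 10.8 CPM for *Kmt2d* KO. Histone genes are near-identical copies, so how reads were shared among them is uncertain. The part of the Rn45s share in these values was not tested.

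Sterol synthesis genes were higher in replicate 3. Of 23 members, 18 were called higher and 0 lower, with a median log2 fold change of 0.92. *Acat2*, which makes acetoacetyl-CoA at the head of the pathway (chr17:13135756-13153613), was at 40.2, 40.9 and 221 CPM in replicates 1, 2 and 3 of WT, at 32.7, 30.9 and 86.7 CPM in those of *Kmt2c* KO and at 18.9, 17.3 and 93.4 CPM in those of *Kmt2d* KO, a log2 fold change of 2.11 (SE 0.15). Replicate 3 was the highest library of each genotype, and the WT value stood above those of the knockouts. *Cyp51*, lanosterol demethylase, had a log2 fold change of 1.37, *Nsdhl*, a dehydrogenase of the same pathway, of 1.52 and *Stard4*, a cholesterol transporter, of 1.30. The medians by genotype were 1.34 for WT, 0.59 for *Kmt2c* KO and 0.92 for *Kmt2d* KO, and 13 of the 23 genes passed the interaction test. Of 14 fatty acid synthesis genes, *Elovl6*, a fatty acid elongase (1.21), and *Fads2*, a desaturase (0.97), were called higher and the others were not called. Leaving out *Kmt2c* KO replicate 2 or 3 gave 1 lower.

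Genes of mitochondrial respiration were moderately higher. Of 44 oxidative phosphorylation genes, 22 were called higher and 0 lower, with a median log2 fold change of 0.60, and 34 lay above both other libraries in all 3 genotypes. *Ndufb8*, a subunit of complex I, read 78.3, 71.3 and 176 CPM for WT, 75.9, 88.7 and 169 CPM for *Kmt2c* KO and 85.4, 92.7 and 192 CPM for *Kmt2d* KO, with no overlap between replicate 3 and the rest. *Uqcrb* of complex III had a log2 fold change of 1.31 and *Cox7b* of complex IV of 1.26. Cytosolic ribosomal protein genes had 14 of 56 members called higher and 0 lower, with a median of 0.38. By genotype the median was 0.71 for WT, 0.19 for *Kmt2c* KO and 0.25 for *Kmt2d* KO, and without the 3 WT libraries 4 of 56 were called. Leaving out WT replicate 3 alone gave 4, WT replicate 2 alone 9 and *Kmt2c* KO replicate 3 alone 23. With total counts in place of TMM, 9 were called. *Rps2*, a protein of the small subunit, had log2 fold changes of 1.67 for WT, 0.59 for *Kmt2c* KO and 0.81 for *Kmt2d* KO (adjusted p of the interaction = 0.0071, edgeR). Of 32 genes for ribosome assembly and MYC targets, 1 was called higher and 3 lower, with a median of -0.05. Without *Kmt2d* KO replicate 3, 2 were higher. *Myc* was at 698, 731 and 545 CPM in WT, and its log2 fold change over the 3 genotypes was -0.69.

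Ribosomal and respiratory transcripts are short, and transcript length moved with the replicate 3 difference. Of the 2544 genes with the shortest transcripts, up to 1696 bases, 27.6% were called higher and 7.51% lower. Of the 2544 with the longest, from 4829 bases, these shares were 8.18% and 18.4%. Across 12720 genes, Spearman's rho between the log2 fold change and length was -0.24, and it was 0.06 for GC content. These are correlations across genes, which are not independent replicates. The median length was 872.5 bases for the ribosomal protein list, 992 for oxidative phosphorylation and 578.5 for histones. It was 3191.5 for mitotic, 2976.5 for DNA replication and 2624.5 for ATF4 response genes, beside 2981 over all genes tested. The part of length in the difference of the short lists was not tested.

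**Figure D3:**
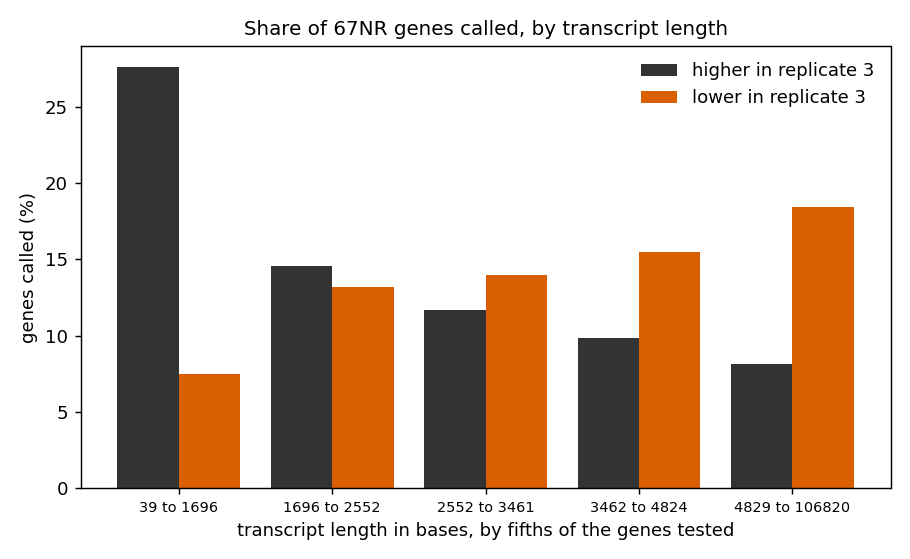
Percentage of tested 67NR genes called higher (dark bars) or lower (orange bars) in replicate 3, in 5 bins of transcript length in bases with 2544 genes each, with the vertical axis from 0. The share called higher falls from 27.6% in the shortest bin to 8.18% in the longest, and the share called lower goes from 7.51% to 18.4%.

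ATF4 response genes were lower. Of 32 members, 26 were called lower and 0 higher, with a median log2 fold change of -1.22, and 28 lay below both other libraries in all 3 genotypes. *Slc7a11*, the cystine transporter (chr3:50168858-50247535), was at 472, 507 and 20.3 CPM in replicates 1, 2 and 3 of WT, at 50.98, 54.3 and 4.48 CPM in those of *Kmt2c* KO and at 129, 106 and 8.22 CPM in those of *Kmt2d* KO. The genotypes differed in level in every replicate, while replicate 3 was lowest in each, with a log2 fold change of -4.01 (SE 0.19). *Trib3*, a pseudokinase that restrains the response (chr2:152163158-152169768), read 298, 241 and 32.7 CPM for WT, 161, 132 and 26.8 CPM for *Kmt2c* KO and 246, 276 and 29.1 CPM for *Kmt2d* KO. *Nupr1*, a stress-induced chromatin protein, had a log2 fold change of -2.48 and the transcription factor *Atf3* of -3.79. *Fgf21*, a secreted hormone, read 28.7, 25.1 and 3.01 CPM for WT, 4.14, 2.63 and 0.0512 CPM for *Kmt2c* KO and 24.6, 24.5 and 0.162 CPM for *Kmt2d* KO (-4.38, SE 0.60). *Cth*, the enzyme that makes cysteine from cystathionine, was at 165, 184 and 42.05 CPM in WT (-2.01).

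Members of that response differed in how low they were. *Atf4* itself (chr15:80085614-80087970), named after its values were seen as are the next 2 genes, was at 961, 912 and 411 CPM in WT, with a log2 fold change of -1.07 (SE 0.11). *Psat1*, a serine synthesis enzyme that was not called, read 433, 513 and 164 CPM for WT, 189, 218 and 251 CPM for *Kmt2c* KO and 322, 259 and 217 CPM for *Kmt2d* KO. Replicate 3 was the lowest library of WT and the highest of *Kmt2c* KO, and the interaction passed the test (adjusted p = 0.00033, edgeR). *Phgdh*, the first enzyme of the same pathway and also not called, was at 364, 304 and 188 CPM in WT and 211, 183 and 196 CPM in *Kmt2c* KO (adjusted p = 0.039). In all, 19 of the 32 genes passed the interaction test, and the median log2 fold changes were -1.55 in WT, -0.81 in *Kmt2c* KO cells and -1.35 in *Kmt2d* KO cells.

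Chaperones of the endoplasmic reticulum were lower too. Of 20 members, 13 were called lower and 0 higher, with a median of -0.74. *Hspa5*, the major chaperone of the compartment (chr2:34627490-34632051), was at 7967, 9150.0 and 1833 CPM in replicates 1, 2 and 3 of WT, at 5149, 5403 and 1484 CPM in those of *Kmt2c* KO and at 12754, 10387 and 1643 CPM in those of *Kmt2d* KO. Replicates 1 and 2 spread over 5149 to 12754 CPM, while the 3 replicate 3 libraries lay at 1484 to 1833 CPM (log2 fold change -2.27, SE 0.18). *Dnajb9*, its co-chaperone, had a log2 fold change of -2.04, *Herpud1*, a membrane component of the degradation machinery, of -2.08 and *Xbp1*, a transcription factor of the response, of -1.58. Cytosolic heat shock genes had 4 of 18 called higher and 0 lower, and 2 lower without *Kmt2c* KO replicate 3. *Hsp90aa1* was at 1873, 2306 and 4258 CPM in WT (0.98), and *Hspa8*, *Hspa1b* and *Hsp90ab1* had log2 fold changes of 0.84, 0.75 and 0.69.

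Among p53 target genes, 14 of 26 were called lower and 1 higher, with a median of -0.66. *Mdm2*, the ubiquitin ligase of p53, read 116, 128 and 61.97 CPM for WT, 402, 464 and 184 CPM for *Kmt2c* KO and 383, 330.4 and 168 CPM for *Kmt2d* KO. Its level was lower in WT than in the knockouts in each replicate, and replicate 3 was lowest in each genotype. *Trp53inp1* had a log2 fold change of -1.68, *Plk3* of -1.20 and *Sesn2*, which the ATF4 list holds as well, of -1.80. Lysosome and autophagy genes had 7 of 26 lower and 1 higher, with *Sqstm1*, the autophagy receptor, at 1980.0, 1795 and 519 CPM in WT. Without *Kmt2c* KO replicate 3, 11 were lower, and without any 1 of the WT libraries or *Kmt2d* KO replicate 1, 0 were higher. The NRF2 antioxidant list was divided, with 8 of 22 higher and 3 lower. *Slc7a11* and *Sqstm1* were on its lower side, whereas *Gclm*, a subunit of the enzyme that starts glutathione synthesis, was at 36.004, 44.3 and 122 CPM in WT (1.36) and *Gsr*, glutathione reductase, had a log2 fold change of 0.88.

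Glycolysis and hypoxia genes were divided as well. Of 35 members, 15 were called higher and 5 lower, or 3 lower without WT replicate 3. *Ndrg1*, a gene induced by low oxygen and by stress (chr15:66760883-66801202), read 537, 516 and 129 CPM for WT, 907, 803 and 227 CPM for *Kmt2c* KO and 1031, 957 and 302 CPM for *Kmt2d* KO (-1.88, SE 0.11). The glycolytic enzymes *Gapdh* and *Aldoa* were higher (1.24 and 1.17), and *Pfkfb3*, whose product makes an activator of glycolysis, was lower (-1.35). By genotype the median was -0.04 for WT, 0.52 for *Kmt2c* KO and 0.61 for *Kmt2d* KO, and 17 of the 35 genes passed the interaction test.

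**Figure D4:**
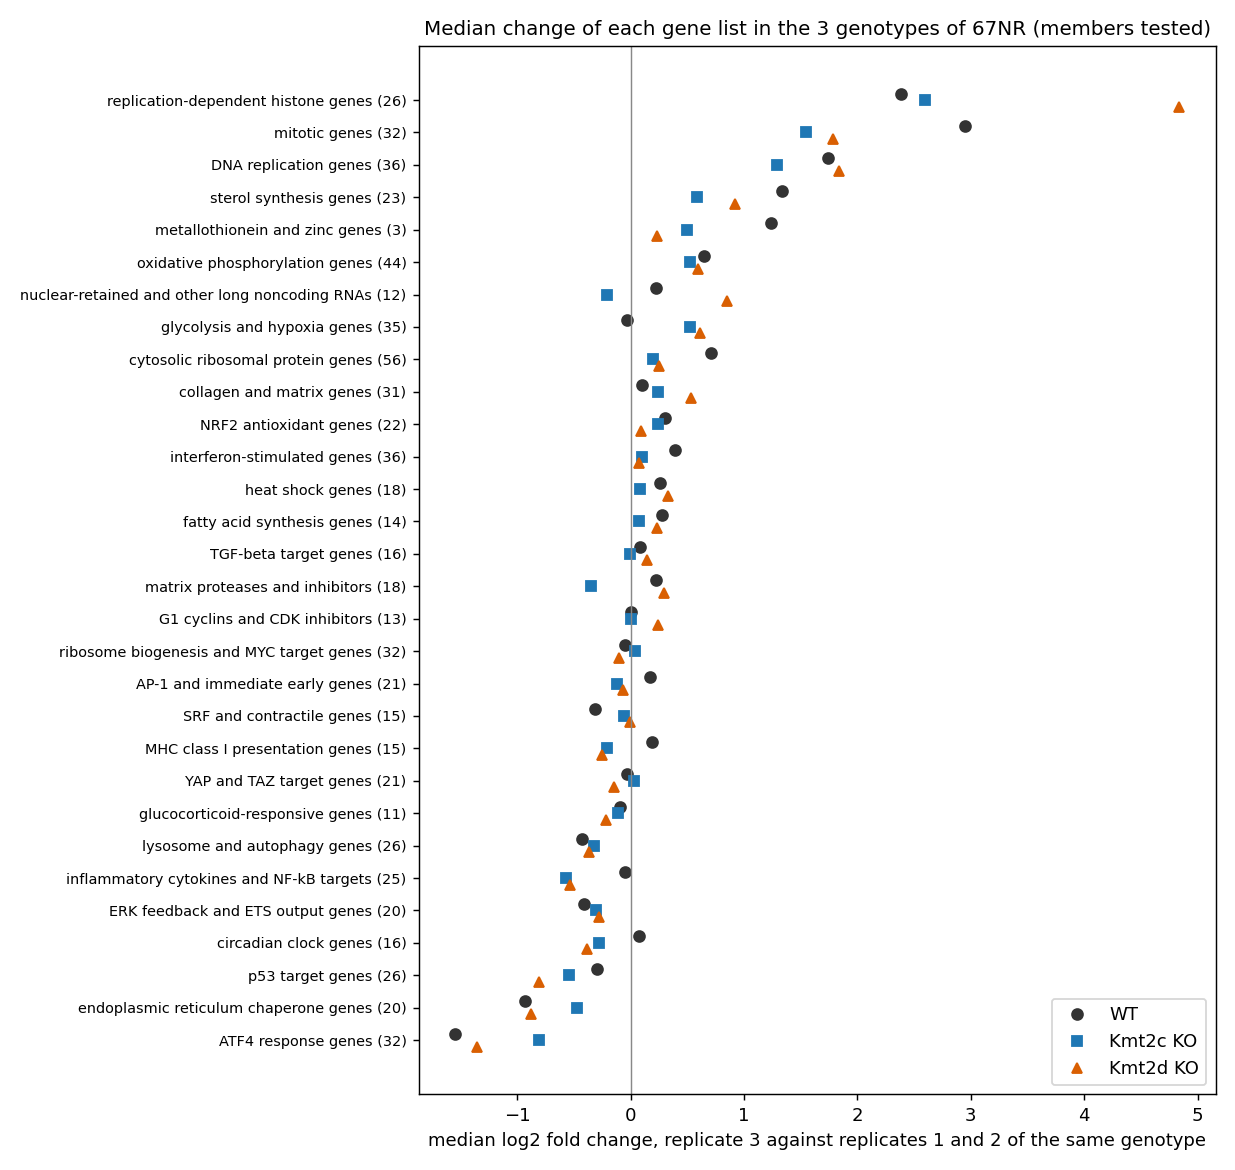
Median log2 fold change of replicate 3 against replicates 1 and 2 of the same genotype (horizontal axis) for each of 30 gene lists (vertical axis, members tested in parentheses), with circles for WT, squares for *Kmt2c* KO and triangles for *Kmt2d* KO. The mitotic list was at 2.95 in WT against 1.55 and 1.78 in the knockouts, and the glycolysis and hypoxia list at -0.04 against 0.52 and 0.61.

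Interferon-stimulated genes had 7 of 36 members called higher and 2 lower in 67NR, beside 15.3% and 13.3% over all genes tested, with a median log2 fold change of 0.27. With limma-voom in place of edgeR, 11 were called higher and 3 lower. Without the library with 28.7% Rn45s these counts were 9 and 0, and without WT replicate 3 they were 6 and 4. Leaving out WT replicate 2 or *Kmt2d* KO replicate 1 left 1 lower. The summed level was 988, 1009.5 and 1137 CPM for WT, 576, 593 and 594 CPM for *Kmt2c* KO and 613, 609 and 635 CPM for *Kmt2d* KO libraries, and WT stood apart from the knockouts in every replicate. *Ifi27l2a* was at 0.824, 0.942 and 2.94 CPM in WT (1.68) and *Zbp1*, a nucleic acid sensor, at 8.33, 8.56 and 16.9 CPM (1.38). *Gbp3*, a guanylate-binding protein, and *Ifit2*, which binds foreign RNA, had log2 fold changes of 1.13 and 0.78. The MHC class I list, which also holds *Cd274* for the checkpoint ligand PD-L1, had 2 of 15 lower and 0 higher. The lower 2 were *Cd274* (-1.35) and the peptide transporter *Tap1* (-0.76), and 1 was higher without *Kmt2d* KO replicate 3. Cytokine and NF-kB genes had medians of -0.05 for WT, -0.57 for *Kmt2c* KO and -0.54 for *Kmt2d* KO, and 12 of 25 passed the interaction test. In the fit over the 3 genotypes, 10 of 25 were lower and 3 higher, and leaving out *Kmt2c* KO replicate 3 gave 6 lower and 3 higher. Among them the chemokine *Ccl20* was at 49.7, 56.4 and 12.9 CPM in WT, and *Cxcl5*, a chemokine that attracts neutrophils, read 459, 501 and 1273 CPM for WT, 923, 1379.6 and 3483 CPM for *Kmt2c* KO and 1166, 1132 and 3093 CPM for *Kmt2d* KO.

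Lists for signalling and matrix held single genes with larger changes beside small medians. Over all genes tested, 15.3% were called higher and 13.3% lower. Several of these lists lay near those shares, and nothing is read from their counts. YAP and TAZ target genes had 4 of 21 higher and 3 lower, with *Ect2*, a cytokinesis factor, at 1.67 and *Nt5e* at -1.27 on the log2 scale. AP-1 and immediate early genes had 1 of 21 higher and 3 lower. ERK feedback genes had 2 of 20 higher and 6 lower, and *Dusp4*, an ERK phosphatase, was at 94.9, 90.99 and 30.5 CPM in WT. SRF and contractile genes had 2 of 15 higher and 1 lower, TGF-beta target genes 4 of 16 and 1, glucocorticoid-responsive genes 2 of 11 and 2, and matrix proteases 3 of 18 and 5. Collagen and matrix genes had 11 of 31 higher and 4 lower, among them *Bgn*, a small proteoglycan (-2.20), and *Col5a2* (1.43). Of 16 clock genes, 1 was higher and 3 lower, with *Ciart*, a repressor of the clock, at 49.5, 39.2 and 9.08 CPM in WT. Metallothionein and zinc genes had 2 of 3 higher and 1 lower. Of 12 long noncoding RNAs, 3 were higher and 3 lower, with *Snhg12* at 127, 101 and 25.5 CPM in WT and *Neat1* at 423, 395 and 774 CPM. Single libraries moved several of these small counts. Without *Kmt2c* KO replicate 3, matrix proteases had 5 higher and 2 lower, which turned the balance, SRF and contractile genes had 3 lower, TGF-beta target genes had 2 lower, and 0 clock genes were higher. Without WT replicate 3, 0 metallothionein and zinc genes were higher, 1 glucocorticoid-responsive gene was higher, 5 YAP and TAZ target genes and 5 clock genes were lower, and 0 SRF and contractile genes were lower. Without WT replicate 2, 1 metallothionein and zinc gene and 1 glucocorticoid-responsive gene were higher. Without WT replicate 1, 0 SRF and contractile genes were lower and 0 clock genes were higher, and the latter held without *Kmt2c* KO replicate 1 or 2 as well. Without *Kmt2d* KO replicate 3, AP-1 and immediate early genes had 2 higher and 1 lower.

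Outside the lists, *Angptl6*, a secreted angiopoietin-like protein, had the lowest p-value of the genes called lower. It read 76.3, 68.2 and 4.54 CPM for WT, 48.3, 41.1 and 4.84 CPM for *Kmt2c* KO and 79.3, 81.3 and 4.82 CPM for *Kmt2d* KO, so that replicate 3 lay at 4.54 to 4.84 CPM in the 3 genotypes. *Acot2*, a mitochondrial acyl-CoA thioesterase, was at 94.2, 106 and 12.3 CPM in WT, with a log2 fold change over the 3 genotypes of -3.94. The tubulins *Tubb4b*, *Tuba1b* and *Tubb2a* were among the 10 genes called higher with the lowest p-values, with log2 fold changes of 2.05, 1.96 and 2.28. Families grouped by the letters that open the symbol, picked after their values were seen, had 8 of 10 Mcm genes, 6 of 10 Ndufb genes and 7 of 13 Lsm genes higher and 0 lower. Of 15 Mmp genes 9 were lower, or 6 without *Kmt2c* KO replicate 3, and 3 higher, and of 10 Atf genes 5 were lower and 1 higher, beside 13.3% lower and 15.3% higher over all genes tested. Between replicates 2 and 1, the lowest p-values were those of *F12*, *Kcnq1ot1* and *Malat1* on the higher side and of *Hist1h4d*, *Col3a1* and *Pacsin1* on the lower, each at an adjusted p of 1.0 in edgeR.

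Markers of the line and of other cell types were checked beside these groups. Of 17 epithelial markers tested, 4 were called higher and 4 lower, or 2 lower without *Kmt2c* KO replicate 3. *Krt8*, a luminal keratin, was at 297, 268 and 784 CPM in WT, whereas *Esrp1*, an epithelial splicing factor, was at 184, 199 and 109 CPM. Of 17 mesenchymal markers tested, 5 were higher and 5 lower, in the fit over the 3 genotypes. *Vim*, vimentin, was at 268, 294 and 1306 CPM for WT, 2784, 2836 and 4646 CPM for *Kmt2c* KO and 2201, 2117 and 4327 CPM for *Kmt2d* KO. *Fn1*, fibronectin, was at 5942, 5767 and 1884 CPM for WT, 1475, 1265 and 744 CPM for *Kmt2c* KO and 1723, 1764 and 1159 CPM for *Kmt2d* KO. Summed epithelial markers were at 4362, 3982 and 5931 CPM for WT, 924, 822 and 1246 CPM for *Kmt2c* KO and 1437, 1417 and 2478 CPM for *Kmt2d* KO, with replicate 3 highest in each. Summed mesenchymal markers were at 6721, 6576 and 4240.4 CPM for WT, 7518, 7629.9 and 11467 CPM for *Kmt2c* KO and 6541, 6372 and 10420.0 CPM for *Kmt2d* KO, so that replicate 3 was lowest in WT and highest in both knockouts. The part of these markers in the differences above was not tested. Defining immune markers were at or near 0. *Ptprc* reached 0.108 CPM in its highest library, *Nkg7* and *Tyrobp* had 0 counts in all 9, and 9 of 13 immune markers stayed under 1 CPM. Immune markers summed to 30.6, 30.2 and 52.7 CPM for WT, 98.4, 91.7 and 52.4 CPM for *Kmt2c* KO and 89.0, 102 and 47.7 CPM for *Kmt2d* KO. Replicate 3 was thus the highest library of WT and the lowest of both knockouts. *Cd68* alone was at 20.4 to 86.2 CPM, and of 5 tested *Csf1r* was called higher. Leaving out *Kmt2c* KO replicate 3 gave 2 immune markers higher, and leaving out WT replicate 1 or 3 gave 1 lower. Endothelial markers summed to 9.21 to 17.9 CPM in replicates 1 and 2 and 9.02 to 14.5 CPM in replicate 3. Adipocyte markers summed to 0.359 to 12.7 CPM in replicates 1 and 2 and 1.16 to 8.91 CPM in replicate 3. Neural markers summed to 6.83 to 35.02 CPM in replicates 1 and 2 and 2.51 to 25.6 CPM in replicate 3, most of it *Mbp*, and 6 of 7 blood markers had 0 counts in every library.

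The same contrast was run in 168FARN, another non-metastatic mouse mammary tumour line with the same 3 genotypes, in 9 libraries of 14359760 to 43427382 counts that took no part in the choice. The count columns label the 168FARN controls sgControl, while their sample titles say WT, as both labels do for 67NR. CPM of the 2 lines were scaled separately. Among 12234 genes tested, 2738 (22.4%) were called higher and 3169 (25.9%) lower in replicate 3. Of the 67NR genes called higher and tested in both lines, 837 of 1770 (47.3%) were called higher in 168FARN and 230 (13%) lower. Of those called lower in 67NR, 732 of 1571 (46.6%) were lower in 168FARN and 177 (11.3%) higher. Over all 11982 genes tested in both, the shares called higher and lower were 22.4% and 25.6%. Pearson's r of the log2 fold changes was 0.38 across genes. The difference between the lines was called in 3196 of 13859 genes (23.1%) with the higher value in 67NR and in 2840 (20.5%) with the lower, by edgeR's test of the line by replicate 3 term. Each line has 1 replicate 3 library per genotype, so a difference between lines cannot be told apart from unlike replicate 3 collections. The p-values of this test do not measure the spread between collections.

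Cell division and sterol genes were higher in replicate 3 of 168FARN too. There, 32 of 32 mitotic genes, 35 of 36 DNA replication genes and 21 of 23 sterol synthesis genes were called higher, with medians of 1.82, 2.37 and 1.74. The size of the change differed between the lines. Of the DNA replication genes, 20 of 36 passed the test of the difference with the lower value in 67NR and 1 with the higher. For sterol synthesis genes these counts were 13 and 1 of 23, and for mitotic genes 2 and 10 of 32. Over all genes the shares were 20.5% and 23.1%. *Tk1* was at 13.1, 10.5 and 125 CPM in replicates 1, 2 and 3 of 168FARN WT, and its log2 fold change was larger there (3.61, difference 67NR minus 168FARN -1.38, SE 0.17, adjusted p = 2.1e-06, edgeR). Of the p53 target genes, 13 of 25 were lower. *Trib3* was at 329, 346 and 97.6 CPM in 168FARN WT, with a log2 fold change over the 3 genotypes of -2.81. *Angptl6* had a log2 fold change of -3.98, and its difference between lines did not pass the test (0.23, SE 0.31, adjusted p = 0.57).

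**Figure D5:**
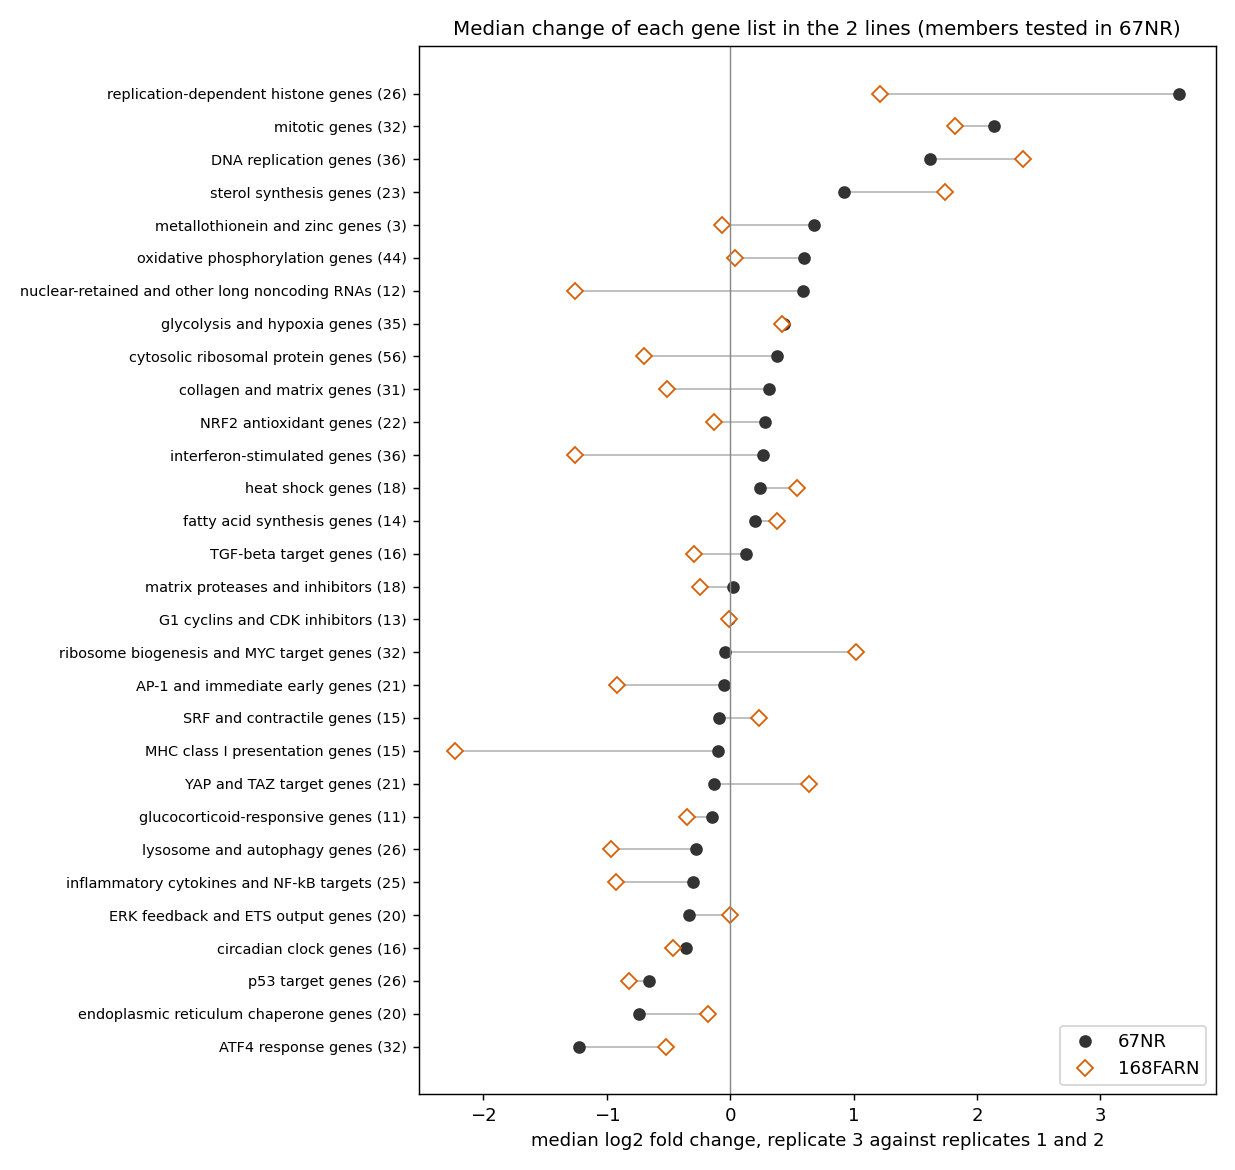
Median log2 fold change of replicate 3 against replicates 1 and 2 (horizontal axis) for each of 30 gene lists (vertical axis, members tested in 67NR in parentheses), with filled circles for 67NR and open diamonds for 168FARN. The mitotic list was at 2.13 and 1.82, whereas the ribosomal protein list was at 0.38 and -0.70 and the interferon list at 0.27 and -1.25.

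Further groups differed between the lines as well. Interferon-stimulated genes were lower in 168FARN, with 23 of 33 called lower and a median of -1.25, and 23 of 36 passed the test of the difference with the higher value in 67NR. The MHC class I list, with *Cd274* among its members, had 14 of 15 lower in 168FARN, and 13 of 15 passed. *B2m*, which encodes the light chain of MHC class I and was named after its values were seen, was at 1287, 1417 and 1376 CPM in 67NR WT and 5643, 4939 and 1217 CPM in 168FARN WT. Ribosomal protein genes were lower in 168FARN for 33 of 56, and 40 passed. Ribosome biogenesis and MYC target genes were higher in 168FARN for 26 of 32, and 25 passed with the lower value in 67NR. In the ATF4 response list, 15 of 31 genes were lower and 5 higher in 168FARN, and 19 of 32 passed with the lower value in 67NR. *Slc7a11* was at 25.7, 26.5 and 16.9 CPM in 168FARN WT (difference between lines -3.04, SE 0.22, adjusted p = 8.1e-09, edgeR). *Psat1* was at 168, 158 and 661 CPM there, with replicate 3 the highest. Of the endoplasmic reticulum chaperones, 6 of 19 were lower and 1 higher in 168FARN, and 9 of 20 passed the test with the lower value in 67NR.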

How the data were processed

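RNA-seq was made from poly(A) RNA of WT, *Kmt2c* KO and *Kmt2d* KO 67NR and 168FARN cells. The authors aligned reads with STAR to mm9 in the VIPER pipeline and deposited raw counts per gene symbol in capitals. The library kit was strand-specific, but whether counting used strand is not given in the sources used here, so overlapping genes are uncertain. In the 67NR table, 27 rows carry a date in place of a symbol and were not named. All columns matched a sample. Counts were fitted with edgeR 4.0.16 (robust quasi-likelihood, TMM, low counts filtered by genotype) in R 4.3.3, with genotype and replicate 3 as terms and Rn45s dropped. P-values were adjusted by Benjamini-Hochberg. The SE is the log2 fold change over the root of its F statistic. DESeq2 1.42.0 and limma 3.58.1 were alternatives. Fitting was tested on simulated data. Replicates 1 and 2 of a genotype differed beyond sampling noise (median chi-square 12.3 to 22.3 times that of sampling). The contrast, 30 gene lists and 7 marker lists were chosen with earlier results of these data known. Genes were named by rule: among called genes beyond both other libraries in every genotype, the 10 in each direction with the lowest p and the 5 with the largest change at a mean of at least 5 CPM, up to 4 called members of each list, the 3 with the lowest p in each interaction and in each direction of replicate 2 against 1, and the targeted genes. Other genes are markers, exceptions, promoters shown or added after their values were seen. Gene positions are in mm9, 1-based, and promoters in GRCm38.p6.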

Additional observations from a re-analysis of the deposited data

Results flagged for a closer look

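The replicate 3 difference was unequal between 67NR genotypes for 2480 genes by edgeR's interaction test, with 57 of the 153 genes named by rule among them and with the limit of 1 replicate 3 library per genotype given above. The lowest p-value was that of *Ctgf*, a matricellular protein gene (chr10:24315248-24318489), which read 423, 483 and 372 CPM for WT, 3.52, 3.63 and 60.4 CPM for *Kmt2c* KO and 19.9, 17.1 and 84.7 CPM for *Kmt2d* KO (adjusted p = 4.2e-08). *Lars2* came next (adjusted p = 5.0e-07), with its highest value in the *Kmt2d* KO replicate 3 library, where Rn45s, a row outside the tests, held 28.7% of counts. *Ogn*, a small proteoglycan, read 21.3, 23.3 and 1.44 CPM for WT, 1.44, 1.27 and 3.51 CPM for *Kmt2c* KO and 4.97, 5.40 and 4.37 CPM for *Kmt2d* KO (adjusted p = 1.1e-06).

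Between the lines, the difference was higher in 67NR for 3196 genes and lower for 2840, with 91 of the 151 named genes tested among them. The limit on collections given above holds here too. *Phyhd1* was at 75.2, 61.3 and 19.97 CPM in 67NR WT and 59.5, 51.3 and 1.75 CPM in 168FARN WT (adjusted p = 2.4e-09, edgeR). *Pik3ip1*, an inhibitor of PI3 kinase, was at 10.3, 11.2 and 7.46 CPM and 43.2, 45.1 and 3.28 CPM (adjusted p = 2.8e-09). *Ypel3* was at 42.1, 37.04 and 24.996 CPM and 85.1, 76.3 and 8.03 CPM (adjusted p = 2.8e-09).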

How the results depend on the processing

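The number of genes called in replicate 3 of 67NR, 3922, was 6433 at an adjusted p under 0.05 without a fold threshold and 1692 when the log2 fold change also had to exceed 1 in size. Under the latter, 212 list members were called in place of 333, and interaction calls were 1605 in place of 2480 at an adjusted p under 0.05. Leaving out 1 library at a time gave 3764 to 4308 calls, 324 to 356 list members, 1752 to 3268 interaction calls, 5630 to 6280 calls in 168FARN, 5399 to 6372 between lines and 0 for replicate 2 against 1. Replicate 3 libraries could not be left out of the interaction. With the replicate block, which fits the 3 replicates as separate levels, 3846 genes and 334 list members were called. Total counts in place of TMM moved the median of all genes to -0.108 and gave 1796 genes higher and 2259 lower, against 2098 and 1824. Of 153 named genes, 107 kept their call and direction in every setting run, and 0 reversed. The fit for replicate 2 against replicate 1 without replicate 3 was chosen after seeing the data.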
